A study of Mus musculus with 15 samples.

Results

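The genes described here are 10 regulators and markers of the endothelial-mesenchymal transition, chosen by name from the 44674 genes of the count table of cultured mouse bone marrow endothelial cells (BMECs). They are 7 transcription factors (Snai1, Snai2, Twist1, Twist2, Zeb1, Zeb2 and Prrx1) and 3 mesenchymal products (Cdh2, Fn1 and Vim). All 10 passed the filter on low counts, which 19401 genes passed in all.

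In the endothelial-mesenchymal transition, endothelial cells lose junction and receptor genes and take up matrix, contractile and cytoskeletal genes. Snail, Twist and Zeb factors are its classical regulators: Snail and Zeb proteins bind E-boxes with zinc fingers and mostly repress, Twist proteins are basic helix-loop-helix factors, and Prrx1 is a homeobox factor of limb and other mesenchyme. TGF-beta and BMP ligands are the best known inducers. The same factors mark fibroblasts and marrow stroma that never were endothelial.

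The 15 bulk RNA-seq libraries fall into 8 conditions, with 2 libraries each apart from 1 at passage 4. Whole bone marrow of tamoxifen-treated adult Tie2-CreERT2;Rosa26-tdTomato mice was cultured in endothelial medium (P0), and CD45-tdT+ cells were sorted into P0 Emcn+ BMECs and P0 Emcn- BMECs by endomucin, a sialomucin of sinusoidal endothelium. Sorted Emcn- BMECs were passaged to give P1, P2, P3 and P4. Lung cultures gave tdT+ lung ECs, which the study describes as sorted Emcn- cells. BM MSCs were tdT+ cells from marrow of Osx-Cre;Rosa26-tdTomato mice grown in mesenchymal medium. The labels give the genotype of every library as WT and 4 batches. The study's methods describe fewer batches of replicates, the first sequenced on another Illumina instrument than the later ones. Which labelled batch ran on which instrument was not established here, so batch differences may include the instrument. The reporter is switched on by Cre under the Tek promoter and stays on in the progeny of a marked cell whatever that cell later expresses, and Osx-Cre is driven by the promoter of Sp7, an osteoblast factor. The study describes the libraries of a condition as independent biological samples, and the labels do not tie a library to a mouse.

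Library totals ran from 9914620 counts (P0 Emcn- replicate 2) to 39718807 (P0 Emcn- replicate 1). The sorted marker Emcn stood at 631 and 798 counts per 1000000 (CPM) in P0 Emcn+ BMECs and at 12.7 and 2.52 in P0 Emcn- BMECs. The defining endothelial markers went with it. Cdh5 (VE-cadherin) was at 6222 and 5118 CPM in P0 Emcn+ BMECs against 119 and 6.35 in P0 Emcn- BMECs, and at 0.0564 to 2.33 from P1 to P4. The summed level of 20 endothelial genes was 12908 to 15082 CPM in P0 Emcn+ BMECs, 202 to 426 in P0 Emcn- BMECs and 157 to 190 from P1 to P4, so the libraries labelled Emcn- BMEC held little endothelial mRNA. In lung and BM MSC libraries replicate 2 carried more of it (1288 and 450 CPM) than replicate 1 (350 and 62.6). In such bulk libraries, fewer cells of a type and less RNA per cell cannot be told apart. At the protein level, the study's immunostaining of P0 cultures found VE-cadherin and CD31 (Pecam1) on network-forming and colony-forming BMECs alike. Endomucin was found there only on the network-forming ones.

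The RefSeq table of promoters (GRCm38.p6, 250 bases before to 50 after a start site) held 9 windows for 6 of the 10 genes, namely Snai1, Twist1, Twist2, Zeb2, Prrx1 and Vim, and none was matched for Snai2, Zeb1, Cdh2 and Fn1. The windows below are those of Snai1, the only one of the 9 with the E-box core CAGGTG or its reverse complement CACCTG (capitals), and of the 3 genes that differed most between P0 Emcn+ and P0 Emcn- BMECs. They lie at chr2:167537945-167538244 (plus strand), chr1:163313601-163313900 (minus), chr12:33957421-33957720 (plus) and chr1:91801211-91801510 (plus), and are written 5′ to 3′ on the strand of the gene.
Snai1: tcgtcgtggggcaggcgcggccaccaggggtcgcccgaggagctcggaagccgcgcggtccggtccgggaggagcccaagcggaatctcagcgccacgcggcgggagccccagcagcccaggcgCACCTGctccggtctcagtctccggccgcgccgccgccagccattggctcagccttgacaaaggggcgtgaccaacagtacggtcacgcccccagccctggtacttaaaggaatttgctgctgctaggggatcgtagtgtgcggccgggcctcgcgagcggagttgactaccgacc
Prrx1: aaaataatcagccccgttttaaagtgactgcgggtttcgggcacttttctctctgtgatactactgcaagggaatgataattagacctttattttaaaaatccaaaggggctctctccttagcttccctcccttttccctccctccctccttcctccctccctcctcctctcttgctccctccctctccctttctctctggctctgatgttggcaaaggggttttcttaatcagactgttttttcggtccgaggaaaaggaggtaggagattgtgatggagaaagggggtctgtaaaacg
Twist1: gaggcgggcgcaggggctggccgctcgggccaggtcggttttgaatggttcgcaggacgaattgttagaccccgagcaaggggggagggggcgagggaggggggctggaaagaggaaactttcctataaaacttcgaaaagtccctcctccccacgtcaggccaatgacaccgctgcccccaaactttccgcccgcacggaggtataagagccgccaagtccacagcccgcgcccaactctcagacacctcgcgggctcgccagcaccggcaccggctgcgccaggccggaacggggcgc
Twist2: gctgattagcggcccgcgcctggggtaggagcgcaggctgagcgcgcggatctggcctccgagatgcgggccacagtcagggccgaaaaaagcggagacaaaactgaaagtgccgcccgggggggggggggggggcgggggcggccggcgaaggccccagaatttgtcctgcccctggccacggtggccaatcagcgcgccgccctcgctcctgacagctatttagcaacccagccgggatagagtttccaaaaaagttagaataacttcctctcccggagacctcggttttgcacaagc
The core in the Snai1 window began 126 bases before the start site. Searched on both strands, this core was in 20.2% of the 32851 windows of the table, in 2 of 13 windows of the endothelial list and in 9 of 11 windows of the list of epithelial genes. The looser E-box CANNTG, which includes the core, was in 72.3% of all windows and again only in the Snai1 window among the 9. A match of letters is a description of the window and no binding site.

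The question of the sort was how Emcn+ and Emcn- BMECs of the same culture differ. Of the 10 genes, 6 were called lower in the P0 Emcn+ population relative to the P0 Emcn- one, with none called higher, where 19.2% of all tested genes were called (7.79% higher and 11.4% lower). Calls were made at a Benjamini-Hochberg adjusted p under 0.05 in edgeR's quasi-likelihood test where the log2 fold change also exceeded 1.5 in size. The 6 were Prrx1, Twist2, Twist1, Cdh2, Snai2 and Snai1, and the median log2 fold change of the 10 was -2.04 against -0.06 over all tested genes. Zeb1 differed in the opposite direction, with a log2 fold change of 1.17 that passed the adjusted p (0.00159, edgeR's quasi-likelihood test) but not the fold change limit. Over all 15 libraries, 7 of the genes had both P0 Emcn+ libraries below each of the 13 others (15.5% of tested genes did) and Zeb1 had both above (17.2% did).

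**Figure D1:**
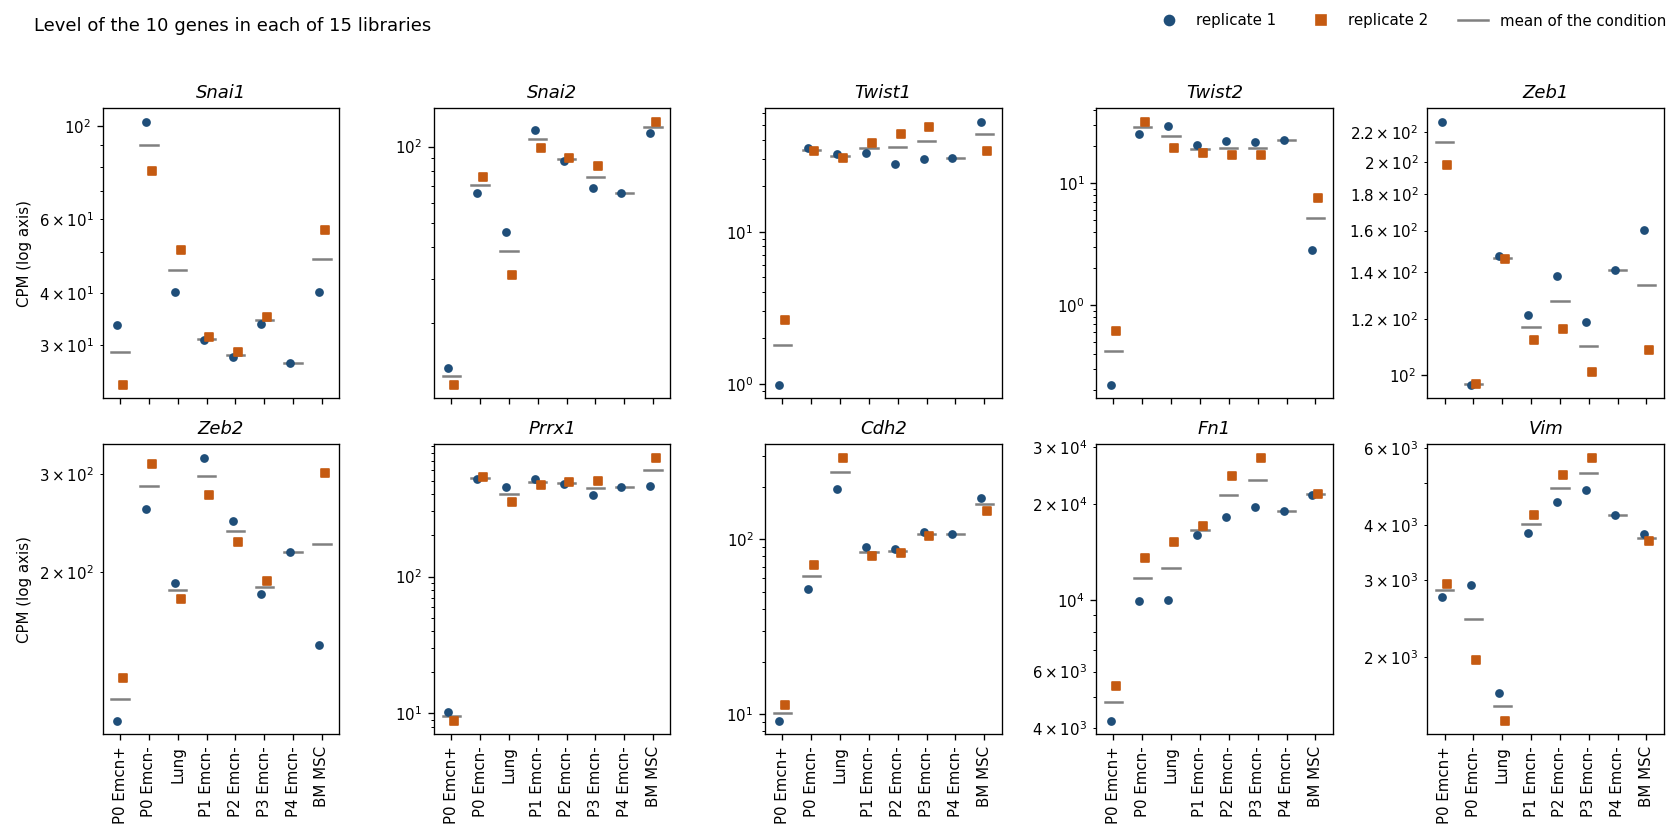
CPM of the 10 genes in each library (log axis, scaled for each gene) over the 8 conditions, with circles for replicate 1, squares for replicate 2 and a grey bar at the mean. Prrx1, Twist1, Twist2, Cdh2 and Snai2 sit lowest in both P0 Emcn+ libraries, Zeb1 sits highest there, and Snai1 is highest in the P0 Emcn- libraries.

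Prrx1 (ENSMUSG00000026586, chr1:163245119-163313710, minus strand) had the lowest adjusted p of the 10 genes between the sorted populations. It was at 10.3 and 8.81 CPM in P0 Emcn+ BMECs and at 513 and 536 in P0 Emcn- BMECs. Lung libraries had 454 and 351 CPM, those of P1 to P4 394 to 518, and BM MSCs 458 and 739. The 13 libraries other than P0 Emcn+ lay between 351 and 739 CPM, and both P0 Emcn+ libraries lay far under all of them. The difference between the sorted populations was 53.7-fold (log2 fold change -5.75 ± 0.28 SE, adjusted p = 8.57e-07 in edgeR's quasi-likelihood test), which ranked 31 of 19401 genes by adjusted p. Within batch d it was -5.53 and within batch a -5.82 on the log2 scale. Its paralog Prrx2, of the list of other transcription factors, had 0.158 and 0.271 CPM in the Emcn+ libraries against 24.5 and 40.2 CPM in the Emcn- libraries of P0.

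Twist1 (ENSMUSG00000035799, chr12:33957671-33959829, plus strand), a factor of neural crest and mesoderm, was at 0.982 and 2.63 CPM in P0 Emcn+ BMECs and at 35.7 and 33.7 in P0 Emcn- BMECs. Twist2 (ENSMUSG00000007805, chr1:91801461-91848028, plus strand), its paralog of dermal and skeletal mesenchyme, was at 0.222 and 0.618 CPM in P0 Emcn+ BMECs, from 7 and 16 counts, and at 25.4 and 31.9 in P0 Emcn- BMECs. Neither gene's P0 Emcn+ libraries came near those of any other condition. Twist2 differed 67.6-fold (log2 fold change -6.08 ± 0.58, adjusted p = 3.6e-05) and Twist1 19.0-fold (-4.25 ± 0.45, adjusted p = 6.88e-05, both edgeR's quasi-likelihood test). With so few counts in P0 Emcn+ libraries the size of the Twist2 difference is less certain than its direction. Within batches d and a it was -5.08 and -4.79 on the log2 scale of CPM plus 0.5. Twist2 also overlaps exons of Gm29100 on the other strand (0 to 1.98 CPM over all libraries). Strand handling in the counting is not given in the sources used here.

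Snai2 (Slug, ENSMUSG00000022676, chr16:14705852-14709385, plus strand) was at 13.3 and 11.4 CPM in P0 Emcn+ BMECs and at 65.4 and 75.8 in P0 Emcn- BMECs, a 5.56-fold difference (log2 fold change -2.48 ± 0.21, adjusted p = 1.54e-05, edgeR's quasi-likelihood test). Snai1 (Snail, ENSMUSG00000042821, chr2:167538195-167542814, plus strand), whose promoter window is printed above, was at 33.6 and 24.2 CPM in P0 Emcn+ BMECs and at 103 and 78.2 in P0 Emcn- BMECs. The groups did not overlap for either gene. Snai1 differed 3.06-fold (-1.61 ± 0.21, adjusted p = 0.000266, edgeR's quasi-likelihood test), and its call rested on single libraries: when either P0 Emcn+ replicate 2 or replicate 1 of P0 Emcn- was left out, the log2 fold change was -1.38 and fell short of the limit, although the adjusted p stayed under 0.05.

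Cdh2 (N-cadherin, ENSMUSG00000024304, chr18:16588877-16809246, minus strand), the adhesion molecule of mesenchymal and neural cells, was at 9.16 and 11.2 CPM in P0 Emcn+ BMECs and at 52.0 and 71.7 in P0 Emcn- BMECs. The groups did not overlap, and the difference was 5.91-fold (log2 fold change -2.56 ± 0.23, adjusted p = 2.73e-05, edgeR's quasi-likelihood test).

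Zeb1 and Zeb2 went in opposite directions. Zeb1 (ENSMUSG00000024238, chr18:5591860-5775467, plus strand) was at 228 and 198 CPM in P0 Emcn+ BMECs and at 97.0 and 97.2 in P0 Emcn- BMECs. Zeb2 (ENSMUSG00000026872, chr2:44983632-45117395, minus strand) was at 108 and 129 CPM in P0 Emcn+ BMECs and at 259 and 312 in P0 Emcn- BMECs. Each pair of groups was separate, with log2 fold changes of 1.17 ± 0.21 for Zeb1 and -1.23 ± 0.27 for Zeb2 (adjusted p = 0.00159 and 0.00499, edgeR's quasi-likelihood test), both under the fold change limit. Within batches d and a the Zeb1 difference was 1.27 and 1.05 and the Zeb2 difference -1.22 and -1.24 on the log2 scale. Both genes overlap exons of genes on the other strand, Gm10125 at Zeb1 (2.08 to 15.8 CPM over all libraries) and Zeb2os at Zeb2 (1.36 to 5.81 CPM). Fn1 likewise overlaps Apol7d (0.232 to 2.55 CPM), and the strand handling is not known for these genes either.

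Zeb2 and Vim are also expressed in macrophages, and the summed level of macrophage genes differed between the sorted populations despite the CD45- gate. The 12 macrophage genes summed to 747 and 743 CPM in P0 Emcn+ BMECs and 264 and 329 in P0 Emcn- BMECs. Of the 12, 3 were called higher in P0 Emcn+ (Cd68, Cd14 and Fcer1g), where 7.79% of all tested genes were. Cd68 was not called without P0 Emcn+ replicate 1. The other 9 were not called, among them Ptprc (log2 fold change 0.90, adjusted p = 0.199), Csf1r (1.10, adjusted p = 0.0618) and Adgre1 (1.23, adjusted p = 0.134, all edgeR's quasi-likelihood test). None of the 12 was at 0 in these 4 libraries. The part of macrophage mRNA in the Zeb2 and Vim values was not tested.

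Fn1 (fibronectin, ENSMUSG00000026193, chr1:71585520-71653200, minus strand) was at 4208 and 5428 CPM in P0 Emcn+ BMECs and 9966 and 13595 in P0 Emcn- BMECs, which did not overlap. Its log2 fold change of -1.26 ± 0.34 passed the adjusted p (0.0164, edgeR's quasi-likelihood test) and not the fold change limit. Vim (vimentin, ENSMUSG00000026728, chr2:13573927-13582826, plus strand), the intermediate filament of mesenchymal and endothelial cells alike, was at 2738 and 2941 CPM in P0 Emcn+ BMECs and 2922 and 1968 in P0 Emcn- BMECs. These ranges overlapped and the log2 fold change was 0.25 ± 0.24 (adjusted p = 0.477, edgeR's quasi-likelihood test), with -0.05 in batch d and 0.61 in batch a.

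**Figure D2:**
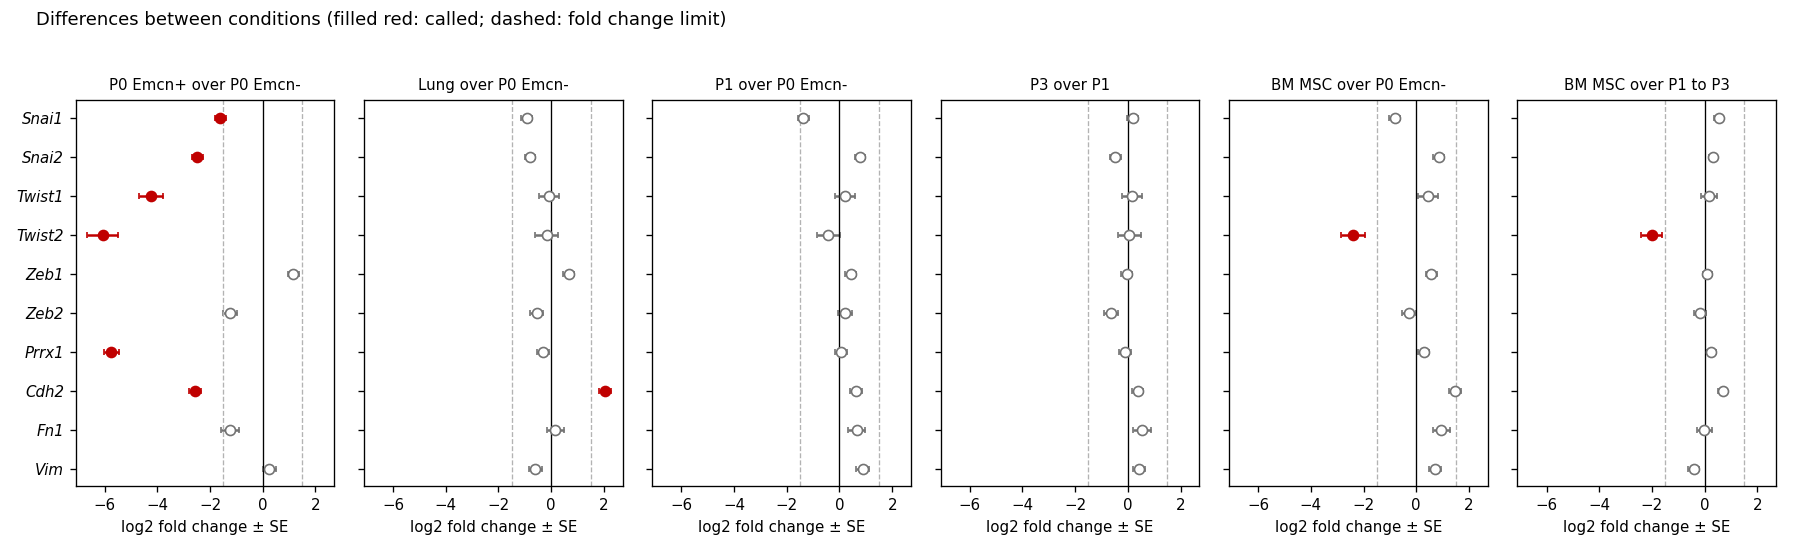
Log2 fold change of each of the 10 genes (rows) in 6 comparisons (panels), with horizontal bars for the standard error, filled red points for calls and dashed lines at the fold change limit of 1.5. In P0 Emcn+ against P0 Emcn- BMECs 6 genes lie left of the lower limit; the other panels hold at most 1 call each, Cdh2 in lung and Twist2 in both BM MSC comparisons.

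Per kilobase of exon, the order of the factors was as follows. In P0 Emcn- BMECs Snai1 had 55.8 ± 10.7 CPM per kb (SD, n = 2), Prrx1 47.4 ± 1.43 and Snai2 34.9 ± 3.65, with Twist1 at 21.3, Zeb2 at 14.3, Zeb1 at 9.46 and Twist2 at 9.02. In P0 Emcn+ BMECs Zeb1 had 20.7 ± 2.06 CPM per kb and Snai1 17.8 ± 4.12, while Snai2 had 6.12, Zeb2 5.96, Twist1 1.11, Prrx1 0.862 and Twist2 0.132. Neither Zeb1 and Snai1 in P0 Emcn+ BMECs nor Snai1 and Prrx1 in P0 Emcn- BMECs differed beyond their spread, so no change of the leading factor was shown. At P1 Snai2 and Prrx1 had the highest means, at 53.2 ± 6.20 and 44.4 ± 3.30 CPM per kb at P1, when Snai1 had 19.2 ± 0.21. Lengths are unions of all annotated exons, which overstate the length of the transcripts in use for genes with many isoforms.

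The ratio of paralogs within a library does not depend on scaling between libraries. Zeb1 counts over Zeb2 counts were 2.11 and 1.53 in P0 Emcn+ BMECs and 0.374 and 0.311 in P0 Emcn- BMECs. The ratio was 0.769 and 0.812 in lung, 0.379 to 0.651 from P1 to P4, and 1.08 and 0.361 in BM MSCs, whose replicates thus stood on either side of most other libraries. Snai2 over Snai1 was 0.396 and 0.474 in P0 Emcn+ BMECs, 0.638 and 0.970 in P0 Emcn- BMECs, 0.615 and 1.15 in lung, 2.02 to 3.77 from P1 to P4 and 2.22 and 2.82 in BM MSCs. The libraries with the higher Snai2 ratio are those of batches b and c and the others those of batches a and d, so batch and culture stage cannot be told apart here. Twist1 over Twist2 was 4.43 and 4.25 in P0 Emcn+ BMECs, from few counts, 18.9 and 4.56 in BM MSCs, and 1.06 to 2.86 in the other conditions.

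**Figure D3:**
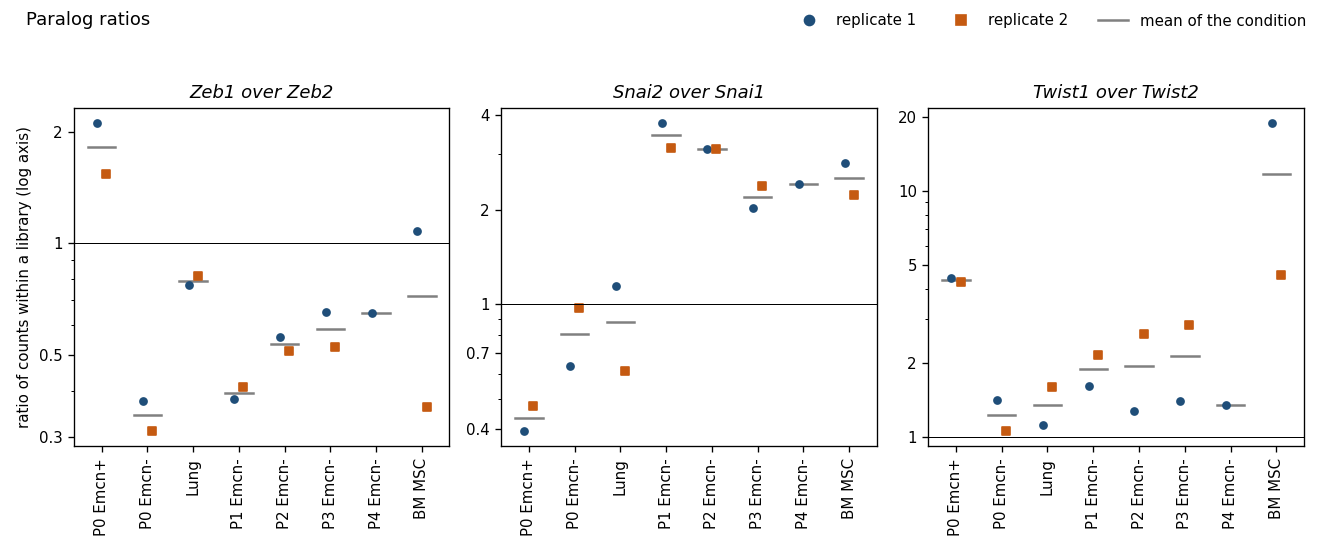
Ratio of counts of 3 pairs of paralogs within each library (log axis) over the 8 conditions, with circles for replicate 1, squares for replicate 2, grey bars at the mean and a line at 1. Zeb1 exceeds Zeb2 in both P0 Emcn+ libraries and in 1 BM MSC library, and Snai2 exceeds Snai1 in every library of P1 to P4 and BM MSC.

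Lung ECs, which the study describes as sorted Emcn- cells of another tissue, were compared with P0 Emcn- BMECs. Emcn was at 32.6 and 125 CPM in lung, above both P0 Emcn- libraries (log2 fold change 3.33, adjusted p = 0.184, edgeR's quasi-likelihood test), so the lung libraries were not free of Emcn mRNA. Of the 10 genes, 1 was called, Cdh2, with 3.83% of all tested genes called (2.13% higher and 1.7% lower). Cdh2 was at 193 and 294 CPM in lung, the highest level of any condition and above both P0 Emcn- libraries, a 4.12-fold difference (log2 fold change 2.04 ± 0.23, adjusted p = 0.00164, edgeR's quasi-likelihood test). It was 1.97 in batch d and 2.08 in batch a, but in a fit of the compared groups alone the adjusted p was 0.0688. Lung epithelial and mesothelial markers summed to 2.98 and 13.1 CPM in lung against 0.806 and 0.908 in P0 Emcn- BMECs, the surfactant gene Sftpc was at 0 in all 15 libraries, and Msln, a mesothelial marker, was at 1.46 and 11.2 CPM in lung and 0 in both P0 Emcn- libraries. Their part in the Cdh2 difference was not tested.

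Snai1 and Snai2 were both at lower values in lung than in P0 Emcn- BMECs. Snai1 was at 40.2 and 50.7 CPM (log2 fold change -0.93 ± 0.21, adjusted p = 0.0306) and Snai2 at 46.0 and 31.2 CPM (-0.80 ± 0.20, adjusted p = 0.0448, both edgeR's quasi-likelihood test), under the fold change limit. Twist1 (32.4 and 30.7 CPM), Twist2 (29.2 and 19.3), Zeb2 (192 and 179) and Fn1 (10026 and 15211) gave adjusted p-values from 0.305 to 0.983. Zeb1 stood at 147 and 146 CPM, between the sorted marrow populations, and its difference from P0 Emcn- BMECs of 0.66 had an adjusted p of 0.104. Vim had its lowest level here, 1657 and 1428 CPM, with a log2 fold change of -0.60 (adjusted p = 0.218, edgeR's quasi-likelihood test). Macrophage genes were lower too, with 10 of 12 called lower in lung and sums of 26.6 and 24.1 CPM against 264 and 329 in P0 Emcn- BMECs, and their part in the Vim and Zeb2 values was not tested.

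The first passage was read from P1 against P0 Emcn- BMECs, although no label ties a P1 library to a sequenced P0 culture. None of the 10 genes was called, against 8.84% of all tested genes (5.77% higher and 3.07% lower), and DESeq2 called 0 of them. An unadjusted p under 0.05 (edgeR's quasi-likelihood test) was reached by 4 of the 10 and by 6683 of all 19401 tested genes. P0 libraries are of batches a and d and P1 libraries of b and c, so batch and passage cannot be told apart. Snai1 came closest, with 30.9 and 31.4 CPM at P1 against 103 and 78.2 before, groups well apart. Its log2 fold change was -1.38 ± 0.21 (adjusted p = 0.00237, edgeR's quasi-likelihood test). It passed the limit at -1.59 without P0 Emcn- replicate 2 and at -1.54 on library totals alone, a scaling that moved the median of all genes by -0.14. At P2, P3 and P4 Snai1 stayed between 27.2 and 35.1 CPM, a range that overlaps that of the P0 Emcn+ libraries (24.2 to 33.6).

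Snai2 went the other way, to 116 and 98.6 CPM at P1 (log2 fold change 0.77 ± 0.20, adjusted p = 0.0257), and Vim to 3843 and 4208 CPM (0.87 ± 0.24, adjusted p = 0.0338, both edgeR's quasi-likelihood test), in each case above both P0 Emcn- libraries and under the fold change limit. Prrx1 differed by 0.06 and Twist1 by 0.19 on the log2 scale, and Fn1 reached 15992 and 17103 CPM (0.65, adjusted p = 0.201, edgeR's quasi-likelihood test). Apart from Snai1 the 10 genes thus differed by less than 1 log2 unit, whereas 7 of 20 other mesenchymal genes were called lower and 1 higher at P1. Acta2, the smooth muscle actin, fell from 89.1 and 62.2 CPM to 12.2 and 9.97, and Col1a1 fell from 5783 and 2891 to 469 and 647. S100a4, a calcium-binding fibroblast marker, rose from 75.2 and 52.2 CPM to 285 and 306. Acta2 lost its call without P0 Emcn- replicate 1 or either P1 library, and Col1a1 without P1 replicate 1.

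From P1 to P3 none of the 10 genes was called, with 0.222% of all tested genes called (0.0773% higher and 0.144% lower). These were 43 genes, and 106 with the replicate block. In this comparison DESeq2 called 0 of the 10. An unadjusted p under 0.05 (edgeR's quasi-likelihood test) was reached by 2 of the 10 and by 2634 of all 19401 tested genes. Those 2 were Zeb2, with 321 and 275 CPM at P1, 247 and 227 at P2 and 183 and 193 at P3, and Snai2, with 116 and 98.6 CPM at P1, 87.9 and 90.0 at P2 and 68.4 and 83.5 at P3. Both went down at each step by their means, without overlap of P1 and P3, and had log2 fold changes of -0.63 ± 0.26 and -0.47 ± 0.19 (adjusted p = 0.331 and 0.326, edgeR's quasi-likelihood test). The single P4 library had 218 CPM of Zeb2 and 65.6 of Snai2. Macrophage mRNA went down as well: its 12 genes summed to 83.5 and 268 CPM at P1, 19.1 and 15.2 at P3 and 11.5 at P4, with 5 of 12 called lower from P1 to P3, and its part in the Zeb2 values was not tested.

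Fn1 and Vim had their highest means at P3, where the range of Fn1 overlapped those of P2 and of BM MSCs (21377 and 21468 CPM) and that of Vim overlapped P2. Fn1 was at 18215 and 24450 CPM at P2, 19496 and 27883 CPM at P3, and 19067 CPM in the P4 library, and in P3 replicate 2 it made up 2.79% of all counts. Vim was at 4524 and 5197 CPM at P2, 4809 and 5701 CPM at P3, and 4223 CPM in the P4 library. Replicate 2, of batch c, was higher than replicate 1, of batch b, for both genes at every passage, and the P3 over P1 differences of 0.55 and 0.42 on the log2 scale had adjusted p-values of 0.527 and 0.493 (edgeR's quasi-likelihood test). Twist1 and Twist2 also divided by batch among P1 to P3. Twist1 was at 28.0 to 32.9 CPM in batch b and 38.3 to 48.6 in batch c, and Twist2 at 20.4 to 22.0 in batch b and 16.9 to 17.8 in batch c.

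Emcn- cells were set against BM MSCs as a mesenchymal reference from the same tissue. Against P0 Emcn- BMECs 1 of the 10 genes was called, where 18.7% of all tested genes were called (11.3% higher and 7.45% lower), and as the 2 groups share no batch, condition cannot be told apart from batch. The called gene was Twist2, at 2.81 and 7.49 CPM in BM MSCs, from 100 and 246 counts, 5.25-fold lower than in P0 Emcn- BMECs (log2 fold change -2.39 ± 0.46, adjusted p = 0.00328, edgeR's quasi-likelihood test). Both MSC libraries lay under every Emcn- and lung library and above both P0 Emcn+ libraries. Twist1, at 53.0 and 34.2 CPM in BM MSCs, had a log2 fold change of 0.43 (adjusted p = 0.400, edgeR's quasi-likelihood test).

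Cdh2 was at 172 and 146 CPM in BM MSCs, above both P0 Emcn- libraries, and its log2 fold change of 1.46 ± 0.22 (adjusted p = 0.000989, edgeR's quasi-likelihood test) was just under the limit. It was called with DESeq2, with RLE size factors, with the replicate block, and without P0 Emcn- replicate 2 or MSC replicate 2. Snai1 was at 40.2 and 56.5 CPM (-0.82, adjusted p = 0.0132), Snai2 at 113 and 125 (0.85, adjusted p = 0.00825) and Vim at 3812 and 3679 (0.71, adjusted p = 0.0429, all edgeR's quasi-likelihood test), under the fold change limit. Adjusted p-values were 0.362 for Prrx1, 0.0538 for Zeb1, 0.453 for Zeb2 and 0.0504 for Fn1. The 2 MSC libraries were far apart for Zeb2 (148 and 301 CPM) and Prrx1 (458 and 739 CPM), and marrow stromal and osteolineage genes summed to 1822 and 5059 CPM in them. Of the 12 macrophage genes 10 were called lower in BM MSCs, with sums of 24.8 and 36.4 CPM, and their part in the Zeb2 and Vim values was not tested.

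BM MSCs were also set against the mean of P1 to P3, whose replicate 2 libraries share batch c with both MSC libraries. Again 1 of the 10 genes was called in BM MSCs, with 14.2% of all tested genes called (8.42% higher and 5.81% lower). Twist2 was 4.04-fold lower (log2 fold change -2.01 ± 0.40, adjusted p = 0.00418, edgeR's quasi-likelihood test), -1.85 within batch c and -1.49 without MSC replicate 1, when it missed the fold change limit. The fit treated the libraries of P1 to P3 as independent, although they are successive passages. Deviations of same-numbered ones from their group means correlated at 0.602 to 0.796. The SE and p-values of this comparison may therefore overstate the certainty. Cdh2 (0.69, adjusted p = 0.012) and Snai1 (0.53, adjusted p = 0.0328, both edgeR's quasi-likelihood test) were at higher values under the limit. For Fn1 the difference was -0.01 ± 0.27 and for Prrx1 0.24 ± 0.18 on the log2 scale. In the same comparison 14 of 20 endothelial genes were called higher in BM MSCs, and 3 were called lower, among them Tek, the driver of the Cre line. The MSC libraries were not alike in this: Cdh5 was at 7.86 and 156 CPM, and the summed level of the list was 62.6 CPM in replicate 1, under every passaged library (157 to 190), and 450 in replicate 2, above them all.

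**Figure D4:**
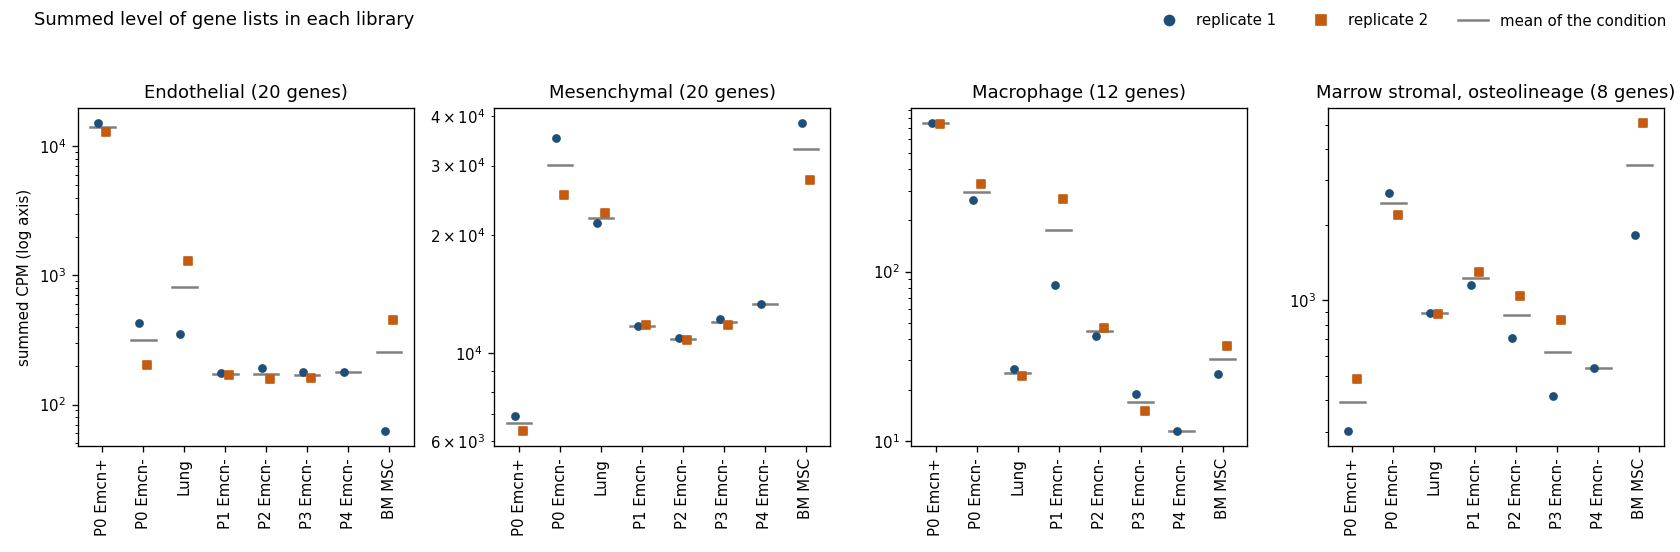
Summed CPM of 4 gene lists in each library (log axis, scaled for each list) over the 8 conditions, with circles for replicate 1, squares for replicate 2 and grey bars at the mean. The endothelial sum is at 12908 to 15082 in P0 Emcn+ BMECs and at most 1288 elsewhere, the mesenchymal sum is lowest in P0 Emcn+ BMECs, and the macrophage sum falls from P1 to P4.

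Other genes of the transition were read from lists. Between the sorted populations, 15 of 20 mesenchymal genes were called lower in Emcn+ BMECs and 1 higher (Ccn2, a matricellular growth factor). Col1a1 was at 57.4 and 64.3 CPM in P0 Emcn+ BMECs, with a log2 fold change of -6.12 (adjusted p = 3.6e-05), and S100a4 at 1.65 and 4.33 CPM, with -4.40 (adjusted p = 6.09e-05, both edgeR's quasi-likelihood test). Tagln was split between the P0 Emcn+ replicates, 5.29 and 70.8 CPM, and was not called (-0.16, adjusted p = 0.933). The endothelial list had 17 of 20 genes called higher in P0 Emcn+ BMECs and 0 lower, with log2 fold changes of 6.48 for Pecam1, 5.65 for Kdr and 2.12 for Tek.

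Several ligand genes were higher where most of the factors were lower. Of 20 TGF-beta and BMP signalling genes, 6 were called higher in P0 Emcn+ BMECs (Tgfb1, Tgfb2, Eng, Bmp2, Bmp4 and Smad1) and 3 lower (Tgfb3, Tgfbr3 and Smad6). The shares over all tested genes were 7.79% higher and 11.4% lower. The ligand gene Tgfb1 was at 291 and 191 CPM in P0 Emcn+ against 58.0 and 21.6 in P0 Emcn- BMECs (log2 fold change 2.62, adjusted p = 0.00107), and Tgfb2 at 134 and 208 against 62.8 and 36.5 (1.81, adjusted p = 0.00914, both edgeR's quasi-likelihood test), a call that Tgfb2 lost when replicate 2 of either population was left out. The receptor genes Tgfbr1 (-0.81, adjusted p = 0.0867) and Tgfbr2 (1.02, adjusted p = 0.0338, both edgeR's quasi-likelihood test) were not called, Tgfbr2 only for its fold change.

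Of 12 other transcription factors of the transition, 11 were tested, and 6 were called lower in P0 Emcn+ BMECs (among them Prrx2 and Foxc2) and 1 higher, Foxc2 not without P0 Emcn+ replicate 1. The higher one was Tcf4, an E protein that pairs with Twist factors, at 988 and 774 CPM against 246 and 296 (log2 fold change 1.74, adjusted p = 0.000122, edgeR's quasi-likelihood test). Prrx2 had a log2 fold change of -7.20 (adjusted p = 3.2e-06, edgeR's quasi-likelihood test). Snai3, the other Snail paralog, was the gene not tested, at 0 to 0.113 CPM. Epithelial genes, whose repression gives the epithelial form of the transition its name, were mostly low: Cdh1 was at most 0.292 CPM and Epcam at most 0.0842 in any library, and 6 of 15 passed the filter on low counts. The 15 genes summed to 0.504 and 1.21 CPM in P0 Emcn- BMECs and 6.96 and 22.1 CPM in lung, where Ocln, a tight junction gene, was at 1.49 and 4.75 CPM and 3 of the 6 were called higher. Their sum was 13.1 and 7.00 CPM at P3 and 13.5 at P4.

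Over the 15 libraries, likeness of pattern was described by Pearson's r of log2(CPM + 1) among 11165 genes, without a test, since the libraries share conditions and batches. For every factor but Snai1, both P0 Emcn+ libraries also lay outside the range of the 13 others, which weighs on r. Prrx1 was most like Septin5 (0.991), Pappa (0.990) and 2810021J22Rik (0.988). Twist1 was most like Nfix (0.989), Ssc5d (0.985) and Arhgef17 (0.984), and Twist2 like Emilin2 (0.984), Scn7a (0.978) and Cyth3 (0.975). Snai2 had Cdh11 (0.973), Gtpbp8 (0.966) and Slc7a2 (0.962) nearest to it. For Snai1 these were Mmab (0.922), Anks6 (0.913) and Phykpl (0.907), for Zeb1 Tbc1d16 (0.923), Zfp979 (0.896) and Lrrc8d (0.863), and for Zeb2 Mitf (0.910), C1galt1 (0.905) and Enpep (0.883). By Spearman's rho, 2 of the 3 genes were the same for Snai1 and for Zeb1, 1 for Twist2 and for Zeb2, and none for Snai2, Twist1 and Prrx1.

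Among the factors themselves Twist1 and Prrx1 had an r of 0.969 and a rho of 0.604, and Snai2 and Prrx1 0.903 and 0.718. Zeb1 and Zeb2 had an r of -0.831 and a rho of -0.754, while Snai1 and Snai2 had 0.181 and 0.075. The ratio of the highest to the lowest library was 144 for Twist2, 83.9 for Prrx1, 53.9 for Twist1 and 32.1 for Cdh2, but 2.97 for Zeb2 and 2.35 for Zeb1.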

How the data were processed

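Estimated counts per gene of 15 libraries (KAPA RNA HyperPrep) were used as the authors deposited them. The submitters' processing notes name STAR, Salmon and GRCm38; the study's methods add the nf-core RNA-seq pipeline and tximport. Assignment of reads to paralogs and overlapping genes therefore rests on Salmon's estimates, and strand handling was not given in the sources used here. The deposited values were whole numbers. Groups and batches came from the labels. Members and lists were chosen with earlier results of these data known.

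CPM was computed on library totals, which counting error limits to a floor of 0.0755 to 0.303 CPM for 3 counts (counting error only). Genes were filtered with filterByExpr (at least 10 counts, total 15), scaled with TMM factors and tested with edgeR 4.0.16 (R 4.3.3) by glmQLFit and glmQLFTest in 1 fit of all 15 libraries, with 1 coefficient per condition, 7 residual degrees of freedom and Benjamini-Hochberg adjustment over 19401 genes. P4 has 1 library and entered no comparison. Genes were called at an adjusted p under 0.05 with a log2 fold change over 1.5 in size. The authors used DESeq2, here an alternative (1.42.0), and set the same fold change limit on shrunken values, whereas fold changes here were not shrunken. On simulated counts the steps recovered 154 to 172 of 200 changed genes per comparison, with at most 6 false calls. The simulation used the same dispersion for all genes, no batch effect and only changes above the fold change limit. It checks the steps and gives no error rates for these data. Within-batch differences were taken on log2(CPM + 0.5).

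Same-numbered libraries share a batch label among the P0 and lung libraries, and likewise among P1 to P3. Their deviations from group means correlated at 0.122 to 0.372 and 0.602 to 0.796. A shared batch and a shared culture cannot be told apart in these values. The main fit held no term for either, and the replicate block, an alternative, held a term for the batch. Replicates differed by more than sampling noise (chi-square per degree of freedom 42.5 to 141).

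Named genes were the 10 members, Emcn, the first 4 of each of 9 gene lists, the 3 genes most like each factor (at least 10 CPM in 2 libraries) and genes overlapping a member; genes named because a list called them fall outside this rule and were chosen after their values were seen. A gene of the lists is not reported here by name. Positions and exon lengths are from GENCODE M21. Alternatives were RLE factors, library totals, 2 other filters, a replicate block, the compared groups alone, adjusted p alone, TMM-scaled levels, Spearman's rho and each library left out.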

Additional observations from a re-analysis of the deposited data

How the results depend on the processing

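Of 700 values of the 10 genes under an alternative, 689 kept their side of the limits, 4 lost a call, 7 gained 1 and none of the called values turned direction. Most of the 689 were uncalled values that stayed uncalled, so their share says little about the stability of the calls. A change of sign in an uncalled gene was counted as kept. With adjusted p alone, 6609 of 19401 tested genes and 9 of the 10 members were called in P0 Emcn+ against P0 Emcn- (3725 and 6 in the main analysis). For lung the counts were 1041 genes and 3 members (743 and 1), for P1 against P0 Emcn- 3387 and 3 (1715 and 0). For P3 against P1 they were 56 and 0 (43 and 0). They were 6853 and 5 (3630 and 1) in MSC against P0 Emcn-, and 6206 and 3 (2761 and 1) in MSC against P1 to P3. With the compared groups alone, lung fell from 743 genes to 145 and from 1 member to 0, P1 to 968 genes and MSC against P0 Emcn- to 2396, while P3 against P1 went from 43 genes to 153. For P3 against P1, DESeq2 called 303 genes, no filter 170 and the replicate block 106. At P1, library totals alone called 1 member. For MSC against P0 Emcn-, DESeq2, RLE factors and the replicate block each called 2 members, and the replicate block changed no other call of a member. Leaving out each library in turn gave 406 to 675 genes in lung, 805 to 2196 at P1 and 0 to 41 for P3 against P1, and members called of 5 to 6 in P0 Emcn+ against P0 Emcn-, 0 to 1 at P1, 1 to 2 in MSC against P0 Emcn- and 0 to 1 in MSC against P1 to P3. Lung counts were 455 without P0 Emcn- replicate 1 and 406 without lung replicate 1, P1 counts 854 without P0 Emcn- replicate 1, 805 without P1 replicate 1 and 930 without P1 replicate 2, and P3 counts 0 without P1 replicate 2 or P3 replicate 1 and 3 without P3 replicate 2. The causes were not tested beyond the fewer libraries or genes that an alternative uses by construction. TMM scaling multiplied levels by 0.923 to 1.08. P0 Emcn- replicate 2, with 9914620 counts, was the shallowest library.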

Other observations

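Pericyte and stromal markers also divided the sorted marrow populations, where 7.79% of all tested genes were called higher in P0 Emcn+ BMECs and 11.4% lower. Of 8 mural genes, P0 Emcn+ BMECs had 3 called higher relative to the Emcn- cells (Mcam, an adhesion molecule of endothelium and pericytes, and the potassium channel pair Abcc9 and Kcnj8) and 3 lower (Cspg4, Des and Notch3). Cspg4, the NG2 proteoglycan of pericytes, was at 1.05 and 1.70 CPM in P0 Emcn+ and 60.1 and 31.9 in P0 Emcn- BMECs. Of 8 marrow stromal and osteolineage genes, 4 were called lower in P0 Emcn+ BMECs and 0 higher, with the chemokine Cxcl12 at 217 and 407 CPM against 2541 and 1858. BM MSCs had 5 of the 8 mural and 5 of the 8 stromal and osteolineage genes called higher than P1 to P3. For the mural genes Rgs5 (1.32 and 38.1 CPM) and Myh11 (2.22 and 41.1 CPM) only MSC replicate 2 lay above the P1 to P3 libraries. Of 6 tested epithelial genes, 3 were called higher in lung relative to P0 Emcn- BMECs, at low levels, and of 5 tested lung epithelial and mesothelial genes 1.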
